A study of Homo sapiens with 8 samples.

Results

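RNA depleted of TET3 was set against RNA depleted of TET1 in NCCIT, a pluripotent cell line derived from a human germ cell tumour (embryonal carcinoma). The comparison rests on the 2 siTET3 arrays and the 2 siTET1 arrays among the 8 arrays of the series, chosen by their transfection labels. The other 4 arrays, 2 from siTET2 cells and 2 from cells given a non-targeting siRNA (siNTC), did not enter the difference in the main fit. They entered the estimate of the spread, the choice of probes for each gene, the background and the classes of level. They are also quoted beside the results. Each group was 1 line of cells transfected repeatedly with a pool of several siRNAs against 1 transcript, or with the non-targeting pool, and by the labels the siTET3 and siTET1 cells differed only in the targeted transcript. The labels do not state whether the 2 replicates of a group were cultured apart, and the p-values then cover only the spread between arrays, which may be technical. Values are log2 intensities on a gene array, and a log2 change is the siTET3 mean minus the siTET1 mean.

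TET1, TET2 and TET3 are dioxygenases that use iron and 2-oxoglutarate to oxidize 5-methylcytosine in DNA to 5-hydroxymethylcytosine and further products, which base excision repair can replace with unmodified cytosine. TET1 is the family member most closely tied to pluripotent cells, where it is found at CpG islands. TET3 is best known from the zygote and from neural tissue. A direct comparison of the 2 depletions asks where the transcriptomes of cells short of one enzyme and of cells short of the other part, with the transfection itself common to both.

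Each targeted transcript was lower in the cells that received its own siRNA. TET3 measured 6.23 and 6.66 in siTET3 cells, against 7.25 and 7.12 in siTET1 cells, a log2 change of -0.74 ± 0.15 (SE, adjusted p = 0.00539), so that siTET3 cells held 59.9% of the siTET1 level (95% confidence interval 48.0 to 74.8%). The 2 siTET3 arrays differed from each other by more than the siTET1 arrays did, yet both lay below both siTET1 arrays. The TET3 call was lost without siTET1 replicate 1, at a change of -0.67 and an adjusted p of 0.0549, and in a fit of all probe clusters on the array, at -0.74 and 0.0707, and the adjusted p ranged between 0.00125 and 0.0707 over all alternatives. Without siTET3 replicate 1 the TET3 change was -0.52.

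TET1 measured 10.93 and 11.05 in siTET3 cells, against 9.91 and 9.87 in siTET1 cells, a log2 change of 1.10 ± 0.048 (SE, adjusted p = 1.54e-07), or 2.15-fold. The arrays did not overlap, and the change was the largest of any gene called higher in siTET3 cells. TET1 averaged 10.28 in siTET2 and 10.57 in siNTC cells, so that its siTET3 level lay above all 3 other groups. TET2, which neither siRNA was designed against, measured 7.22 and 7.48 in siTET3 cells, against 7.62 and 7.64 in siTET1 cells, and its change of -0.28 ± 0.095 (SE, adjusted p = 0.0745) did not pass the test, although the arrays did not overlap. The siTET1 mean of TET3 lay between that of siTET3 cells and the means of 7.55 in siTET2 and 7.52 in siNTC cells.

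**Figure D1:**
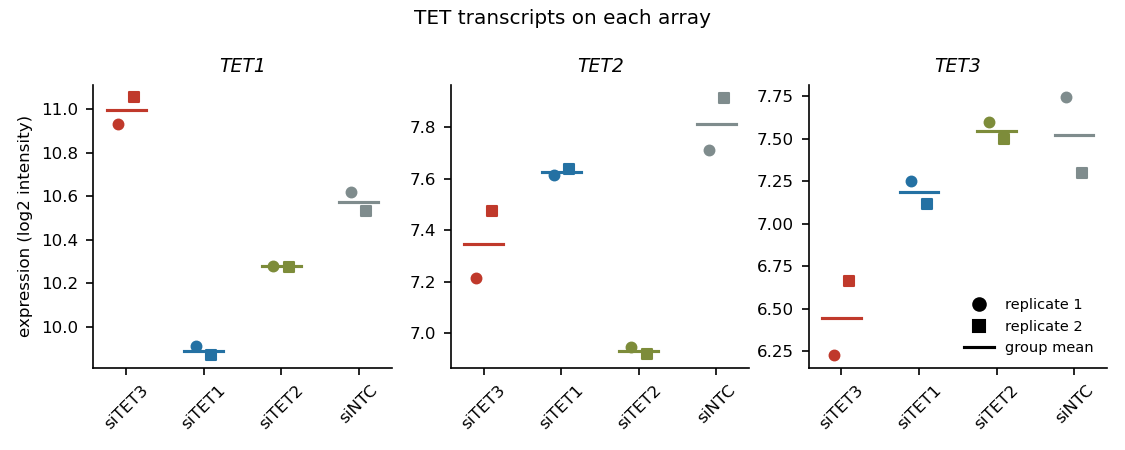
Expression of TET1, TET2 and TET3 (log2 intensity, y axis) on each of the 8 arrays, grouped by transfected siRNA on the x axis. Circles and squares are replicates 1 and 2 and bars are group means. TET1 is highest on the siTET3 arrays and lowest on the siTET1 arrays, and TET3 is lowest on the siTET3 arrays.

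Across 18417 genes, 2534 (13.8%) differed at an adjusted p under 0.05, of which 704 (3.82% of the genes tested) were higher and 1830 (9.94%) lower in siTET3 cells. The changes were small, with a median size of 1.22-fold among called genes. Only 93 genes (0.505%) also changed by at least 1.5-fold, 14 of them higher and 79 lower, and 6 by at least 2-fold. All 2534 called genes had arrays that did not overlap, as did 9964 genes (54.1%) whether called or not, so that separation of 2 arrays a group is common here. The balance of higher to lower calls depended on the scaling of the arrays. It was 27.8% higher with the deposited values, 46.6% (1030 higher and 1179 lower) after quantile normalization, 46.3% (1040 and 1205) after cyclic loess and 55.1% (1280 and 1041) with each array centred on its median gene, which moved the median of all genes to 0.06. Counts by list are therefore given with those scalings wherever they turn the majority.

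This shift followed the signal level and was larger on 1 array. In genes below background (a log2 level of 5.21, set from olfactory receptor genes), siTET3 replicate 1 lay a median of 0.09 above the siTET1 mean and siTET3 replicate 2 0.03 above it. Among genes with mean levels of 6.5 to 8 the same arrays lay 0.11 and 0.04 below it. The 2 siTET3 arrays correlated at 0.9976 over all genes and the 2 siTET1 arrays at 0.9986. Without siTET3 replicate 1, 1552 genes were called (502 higher and 1050 lower), and without siTET3 replicate 2, 3242 (1022 and 2220). Without siTET1 replicate 1 the count was 1294 and without siTET1 replicate 2 it was 1008. A fit of all 33297 probe clusters, with p-values adjusted over all of them, called 1041 of the same genes (263 higher and 778 lower). The share of genes called rose with the level, with 1.8% below background, 14.4% between 6.5 and 8, 25.6% between 8 and 9.5, 30.3% between 9.5 and 11 and 31.2% above 11. In each class above background the lower calls outnumbered the higher ones. The part of either in single results was not tested. A gene named below as higher or lower kept its call in every alternative, the fit of all clusters included, unless at least 1 loss is stated beside it.

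**Figure D2:**
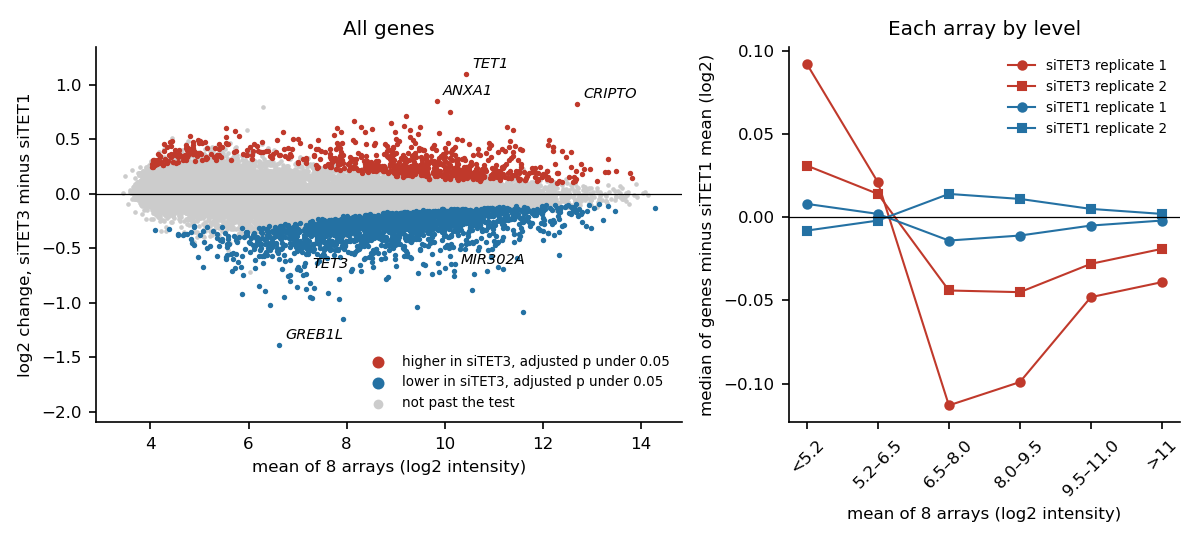
Left, log2 change (siTET3 minus siTET1, y axis) of 18417 genes against their mean log2 intensity over 8 arrays (x axis), with called genes coloured by direction. Right, median difference of each array to the siTET1 mean (log2, y axis) in 6 classes of mean level (x axis). siTET3 replicate 1 departs furthest from 0, by 0.09 below background and by -0.11 in the class 6.5 to 8.

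Among the genes highest in siTET3 cells after TET1 stood ANXA1, a calcium-dependent phospholipid-binding protein, at 10.29 and 10.37 in siTET3 cells, against 9.39 and 9.56 in siTET1 cells. Its log2 change was 0.85 ± 0.062 (SE, adjusted p = 5.6e-06), and the other groups lay between, at 9.64 in siTET2 and 9.91 in siNTC cells. CRIPTO (formerly TDGF1), the membrane co-receptor of NODAL and a marker of pluripotent cells, measured 13.05 and 13.06 in siTET3 cells, against 12.19 and 12.28 in siTET1 cells, a change of 0.82 ± 0.038 (SE, adjusted p = 1.54e-07). Its siTET3 arrays stood at the control level, with means of 12.43 in siTET2 and 13.05 in siNTC cells, and the siTET1 and siTET2 arrays were the low ones. CRIPTO3, a near-identical copy on the X chromosome whose probes can catch the same RNA, changed by 0.57 ± 0.11 (SE, adjusted p = 0.00396), a call lost in the fit of all clusters.

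FGF2, a growth factor that maintains human pluripotent cells, measured 9.44 and 9.42 in siTET3 cells, against 8.78 and 8.85 in siTET1 cells, a log2 change of 0.62 ± 0.052 (SE, adjusted p = 1.5e-05). The siTET2 mean of 8.74 lay beside the siTET1 arrays and the siNTC mean of 9.71 above all of them. SLC7A5, the light chain of the large neutral amino acid transporter, measured 9.56 and 9.65 in siTET3 cells, against 8.86 and 8.91 in siTET1 cells, a change of 0.72 ± 0.054 (SE, adjusted p = 6.81e-06), and here siTET3 cells exceeded both siTET2 (9.26) and siNTC cells (9.08). SLC3A2, the heavy chain of the same transporter, was higher by 0.21, a call lost without the intensity trend. The remaining genes of the 15 with the largest rise were the histone gene H2AC15 (0.75), the small GTPase RASL11B (0.67), LRAT, which esterifies retinol (0.66), REEP3, an endoplasmic reticulum shaping protein (0.62), the glycosyltransferase GCNT2 (0.61), the cytochrome c oxidase subunit COX8A (0.61), GLIPR1 (0.61), the hyaluronan receptor CD44 (0.60), the guide RNA SNORA80E (0.60) and the splicing regulator MBNL3 (0.58). GLIPR1 lost its call without siTET3 replicate 1 and without siTET1 replicate 2.

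The genes that fell most in siTET3 cells were led by GREB1L, a developmental gene required for kidney and inner ear formation, at 6.27 and 6.28 in siTET3 cells, against 7.70 and 7.62 in siTET1 cells, a log2 change of -1.39 ± 0.090 (SE, adjusted p = 2.55e-06). Neither group stood at the control level, as siNTC cells averaged 5.51, below both. SHISA3, of a family known in frogs for holding WNT and FGF receptors in the endoplasmic reticulum, measured 6.82 and 6.53 in siTET3 cells, against 7.83 and 7.81 in siTET1 cells, a change of -1.15 ± 0.086 (SE, adjusted p = 6.81e-06), and both groups lay far below the siNTC mean of 9.89. SATB1, a chromatin-organizing protein that binds AT-rich DNA, measured 6.59 and 6.73 in siTET3 cells, against 7.67 and 7.55 in siTET1 cells, a change of -0.95 ± 0.10 (SE, adjusted p = 8.52e-05). Its siTET2 and siNTC means (7.45 and 7.46) were near the siTET1 arrays, so the siTET3 arrays stood apart.

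SCARNA7, a guide RNA of Cajal bodies, measured 8.82 and 8.78 in siTET3 cells, against 9.87 and 9.81 in siTET1 cells, a log2 change of -1.04 ± 0.050 (SE, adjusted p = 2.01e-07). CCNB2, a B-type cyclin of mitosis, measured 9.94 and 9.88 in siTET3 cells, against 10.77 and 10.80 in siTET1 cells, a change of -0.88 ± 0.040 (SE, adjusted p = 1.54e-07), with the other groups on the siTET1 side, at 10.59 in siTET2 and 10.94 in siNTC cells. The 15 genes with the largest fall further held the serotonin receptor HTR1D (-0.96), the cadherin CDH9 (-0.95), the growth cone protein DPYSL5 (-0.94), the teneurin TENM2 (-0.92), the scaffold protein LIN7A (-0.91) and the contactin CNTN1 (-0.86). Completing them were the extracellular matrix protein FREM2 (-1.02), the phospholipase C-like PLCL2 (-0.89), the xylosyltransferase GXYLT2 (-0.87) and the spliceosome protein SNRPG (-1.08). SNRPG had another, dimmer cluster of probes with a difference of 0.13, so its fall held for 1 of 2 clusters only.

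**Figure D3:**
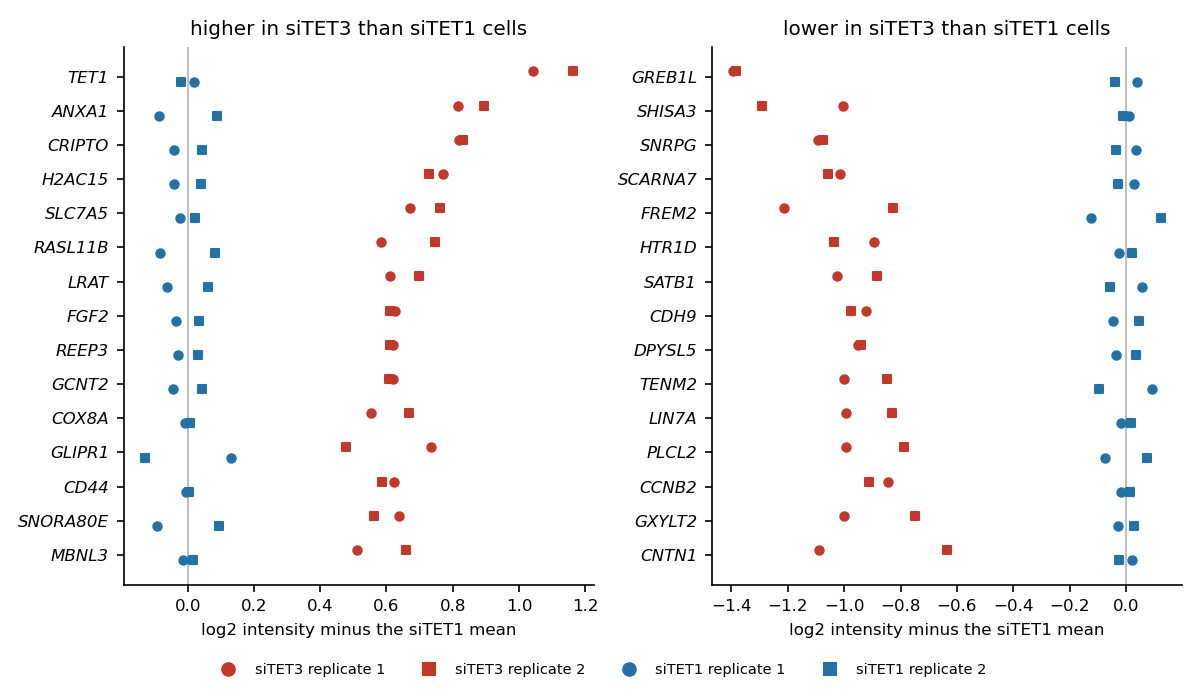
Log2 intensity of each siTET3 array (red) and each siTET1 array (blue) minus the siTET1 mean of the gene (x axis) for the 15 genes with the largest change in each direction (y axis, italic symbols). In all 30 genes both siTET3 arrays lie on the same side of both siTET1 arrays, which was a condition of their choice.

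The siTET2 and siNTC groups took different places around the called genes. Of the 704 genes higher in siTET3 cells, the siTET2 mean lay between the siTET3 and siTET1 means in 385 (54.7%), and the siNTC mean in 248 (35.2%). Of the 1830 lower genes, the siTET2 mean lay between them in 1370 (74.9%) and the siNTC mean in 630 (34.4%). The siTET2 mean was nearer to siTET1 than to siTET3 in 504 (71.6%) of the higher and 1131 (61.8%) of the lower genes. These shares describe the arrays and carry no test.

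The metallothioneins are small cysteine-rich proteins that bind zinc and copper, and most of their genes lie next to each other on chromosome 16. Of 13 measured members, 8 were higher and none lower in siTET3 cells, and the other 5 did not pass the test. The list was made after these values had been seen, so its counts describe the members and are no independent evidence. The share called was 61.5%, against 13.8% of all genes. It was 25.6% of genes with levels between 8 and 9.5, where the mean of this list lay on all but the siTET1 arrays. The median change was 0.32 against a median of -0.001 over all genes. All 13 members were above background. MT1F measured 12.09 and 12.26 in siTET3 cells, against 11.66 and 11.69 in siTET1 cells, a log2 change of 0.50 ± 0.045 (SE, adjusted p = 2.31e-05). MT1X measured 10.64 and 10.73 in siTET3 cells, against 10.20 and 10.25 in siTET1 cells, a change of 0.46 ± 0.043 (SE, adjusted p = 2.89e-05). MT2A measured 11.28 and 11.45 in siTET3 cells, against 10.93 and 11.03 in siTET1 cells, a change of 0.38 ± 0.052 (SE, adjusted p = 0.000417), and its 2 dimmer clusters changed by 0.43 and 0.42. In all 3 genes the arrays of the groups did not overlap, and the siTET1 arrays were the lowest of the series. The siTET2 and siNTC means were 12.09 and 12.56 for MT1F, 10.68 and 10.39 for MT1X, and 11.50 and 11.74 for MT2A. MT1G (0.40) was also higher, as was MT1IP (0.44), whose call was lost without siTET3 replicate 1 and without either siTET1 replicate. The mean level of the list was 8.22 and 8.26 on the siTET3 arrays and 7.90 and 7.92 on the siTET1 arrays. The genes are near-identical copies whose probes can catch each other's RNA, so the 13 values are not 13 separate observations. The members called numbered 6 without either siTET3 replicate, 4 without siTET1 replicate 1, 5 without siTET1 replicate 2, 5 in the fit of the 4 arrays alone and 4 in the fit of all clusters.

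Metallothionein promoters carry metal response elements, which the zinc-sensing factor MTF1 binds. The core was searched as TGCGCNC or TGCACNC on both strands in the 250 bases before each start site in RefSeq (GRCh38.p14). Promoters of 4 metallothioneins were matched by symbol, and all 4 held the core, with 3 to 8 matches each, where 24.8% of all 35116 promoter windows held it. A match is a description of the letters and not of binding. Windows of 2 members that passed the test are shown because the genes move together, with matches to the core in capitals.
MT2A (chr16:56608478-56608520, plus strand): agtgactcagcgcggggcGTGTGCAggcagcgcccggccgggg
MT1X (chr16:56682374-56682416, plus strand): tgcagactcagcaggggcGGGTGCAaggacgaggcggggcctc

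Targets of the hypoxia-inducible factors were also called in 1 direction. These factors are degraded after hydroxylation by prolyl hydroxylases, which belong to the same enzyme class as the TETs. Of 26 measured targets, 8 were higher and none lower in siTET3 cells, a share called of 30.8% against 13.8% of all genes and 25.6% of genes with levels between 8 and 9.5, where this list lay, and the list's median was 0.13. The counts were 11 and 0 under both quantile and cyclic loess normalization, and 5 and 0 without siTET3 replicate 1 or siTET1 replicate 2, and 4 and 0 without siTET1 replicate 1 or with all clusters. BHLHE41, a circadian repressor of transcription, measured 7.20 and 7.12 in siTET3 cells, against 6.68 and 6.64 in siTET1 cells, a log2 change of 0.50 ± 0.083 (SE, adjusted p = 0.0016). Its close relative BHLHE40 measured 7.31 and 7.17 in siTET3 cells, against 6.78 and 6.77 in siTET1 cells, a change of 0.47 ± 0.093 (SE, adjusted p = 0.0052). The arrays of both genes did not overlap, with siTET2 above siTET3 and siNTC below siTET1, at 8.25 in siTET2 and 5.90 in siNTC cells for BHLHE40.

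ADM, which encodes the vasodilator adrenomedullin, measured 9.57 and 9.68 in siTET3 cells, against 9.25 and 9.20 in siTET1 cells, a log2 change of 0.40 ± 0.050 (SE, adjusted p = 0.000228), but here siNTC was the highest group at 10.50. LOX, the collagen cross-linking lysyl oxidase, changed by 0.39, a call lost without siTET3 replicate 1 and without siTET1 replicate 1. The mitophagy receptor BNIP3L was higher by 0.27. STC2, a secreted glycoprotein, was higher by 0.25 and the histone demethylase KDM3A by 0.24, both calls lost without either siTET1 replicate. The mean level of the 26 targets was 8.18 and 8.22 on the siTET3 arrays, 8.05 on both siTET1 arrays, 8.63 and 8.65 on the siTET2 arrays and 7.79 and 7.84 on the siNTC arrays. The siTET3 and siTET1 arrays thus both lay between the siTET2 and the siNTC arrays.

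The core letters of the hypoxia response element, ACGTG, were searched on both strands in the same windows, with CACGTG, the E-box, counted where it overlaps. They occurred in 17 of 30 promoter windows of 21 matched targets (56.7%) and in 18.5% of all windows. Of the 7 matched targets that passed the test, 6 of 10 windows (60.0%) held them, and those of KDM3A, STC2 and ADM did not. The windows of 3 called targets that held a match are shown to place the letters, with the matches in capitals.
BHLHE41 (chr12:26125063-26125103, minus strand): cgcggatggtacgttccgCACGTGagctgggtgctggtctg
BHLHE40 (chr3:4979270-4979310, plus strand): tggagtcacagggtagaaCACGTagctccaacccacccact
LOX (chr5:122078335-122078375, minus strand): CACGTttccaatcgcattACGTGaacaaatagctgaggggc

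Glycolytic genes, many of which hypoxia also induces, had 6 members higher and 2 lower of 24 measured, and 4 and none without siTET1 replicate 2. The share called of 33.3% was near the 30.3% of all genes with levels between 9.5 and 11, where this list lay. LDHA, which converts pyruvate to lactate, measured 12.51 and 12.50 in siTET3 cells, against 12.09 and 12.13 in siTET1 cells, a log2 change of 0.39 ± 0.030 (SE, adjusted p = 8.09e-06). The siTET2 and siNTC means were both 12.48, at the siTET3 level, so the siTET1 arrays were the low ones. PFKFB3, the enzyme that makes the activator of phosphofructokinase, measured 9.04 and 9.12 in siTET3 cells, against 8.69 and 8.66 in siTET1 cells, a change of 0.41 ± 0.053 (SE, adjusted p = 0.000325), with siTET2 highest (9.81) and siNTC lowest (7.95). The aldolase ALDOC was higher by 0.35. The glucose transporter SLC2A3 was higher by 0.24, a call lost without the intensity trend. PFKL, the liver phosphofructokinase, was lower (-0.22), a call lost with median centring, without the trend and without siTET1 replicate 2.

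Immediate early genes, which growth factors switch on within minutes, had 6 members higher and 1 lower of 26 measured. The share called was 26.9%, against 13.8% of all genes and 14.4% of genes with levels between 6.5 and 8, where this list lay. The counts were 4 higher and none lower without siTET3 replicate 1, 2 and none without siTET1 replicate 1 or with all clusters, and 3 and none without siTET1 replicate 2. EGR1, a zinc finger factor induced by ERK signalling, measured 8.61 and 8.66 in siTET3 cells, against 8.27 and 8.32 in siTET1 cells, a log2 change of 0.34 ± 0.060 (SE, adjusted p = 0.00235). KLF10, induced by TGF-beta, measured 8.57 and 8.65 in siTET3 cells, against 8.11 and 8.19 in siTET1 cells, a change of 0.46 ± 0.070 (SE, adjusted p = 0.000884). The siTET2 mean was at or above the siTET3 mean in both, at 9.95 for EGR1 and 8.62 for KLF10. JUN (0.41) and FOS (0.32), the partners of the AP-1 dimer, were also higher, as was FOSL2 (0.43), and all 3 calls were lost without siTET1 replicate 1. Without siTET3 replicate 1 the FOSL2 call was lost too.

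Genes of FGF signalling and its ERK feedback were called in both directions. Of 28 measured members 5 were higher and 8 lower, 6 and 6 under each of the 3 other scalings, 5 and 3 without siTET3 replicate 1, 4 and 1 without siTET1 replicate 2, and 4 and 4 with all clusters. The share called was 46.4%, against 25.6% of all genes with levels between 8 and 9.5, where this list lay. On the higher side, beside FGF2, stood the feedback inhibitor SPRY4, at 10.68 and 10.81 in siTET3 cells, against 10.36 and 10.39 in siTET1 cells, a log2 change of 0.37 ± 0.048 (SE, adjusted p = 0.000322). DUSP6, the phosphatase that removes the activating phosphates from ERK, measured 6.25 and 6.16 in siTET3 cells, against 5.91 and 5.78 in siTET1 cells, a change of 0.36 ± 0.089 (SE, adjusted p = 0.0184), lost without siTET3 replicate 1, without siTET1 replicate 2 and in the fit of the 4 arrays alone. Both groups lay far below the siNTC mean of 8.15 for DUSP6. CCND1, the D-type cyclin induced by ERK, was higher by 0.38, lost without siTET1 replicate 1. Among the lower members were receptors. FGFR4 measured 7.16 and 7.37 in siTET3 cells, against 7.68 and 7.76 in siTET1 cells, a change of -0.45 ± 0.086 (SE, adjusted p = 0.00382), lost without siTET1 replicate 2. FGFR3 changed by -0.33 and FGFR2 by -0.29. Only 1 lower member of the list was called without siTET1 replicate 2, so at least 1 of FGFR3 and FGFR2 lost its call there. FLRT3, a transmembrane partner of the receptors, was lower (-0.36), lost without siTET3 replicate 1.

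**Figure D4:**
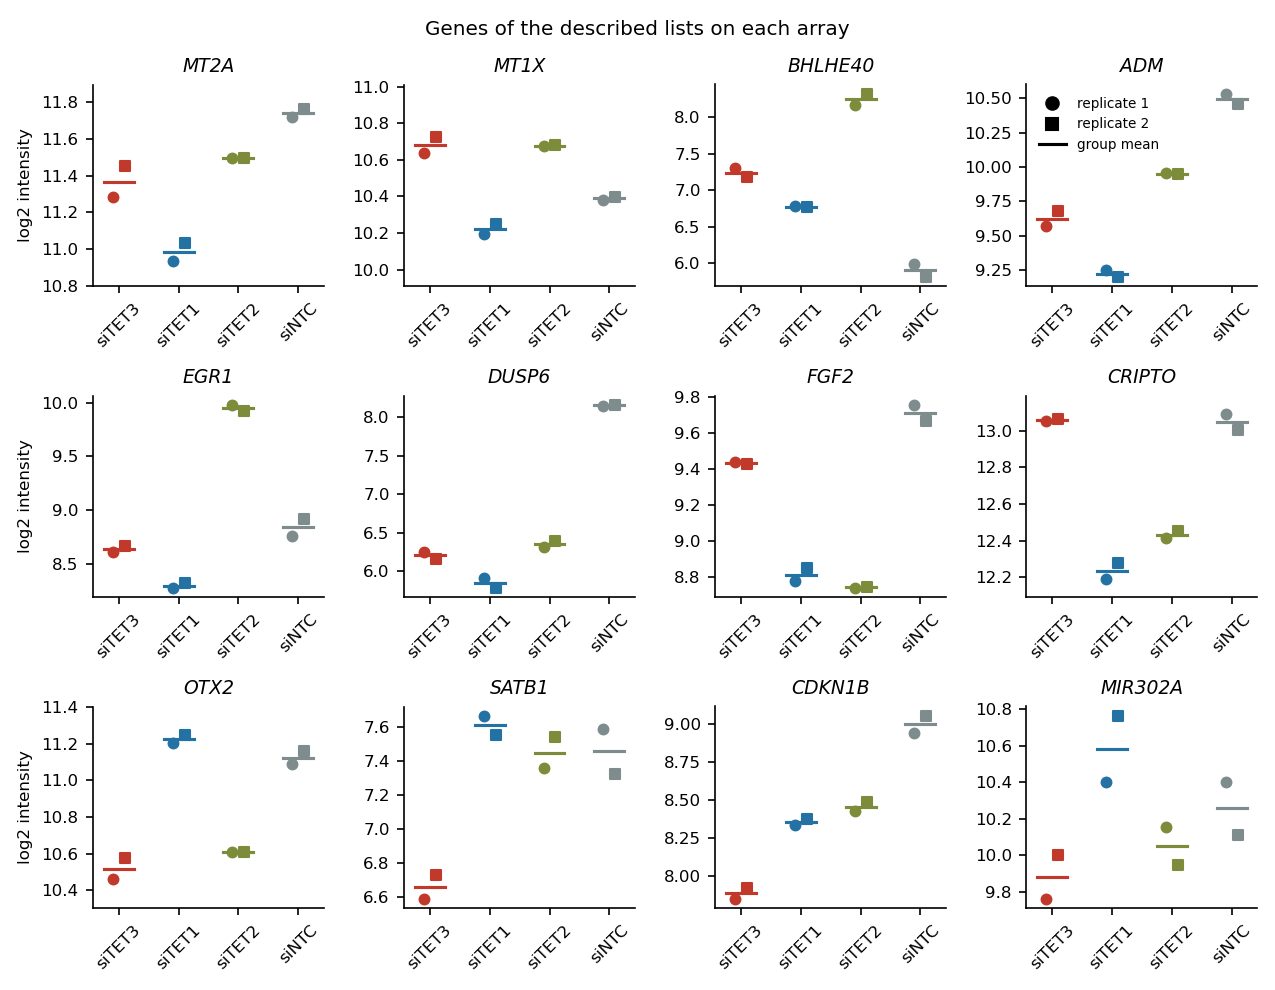
Log2 intensity (y axis) of 12 genes on each of the 8 arrays, grouped by transfected siRNA (x axis). Circles and squares are replicates 1 and 2 and bars are group means. The siTET3 and siTET1 arrays do not overlap in any panel, as in every called gene, and the siTET2 and siNTC arrays lie on different sides of them from gene to gene.

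Of 28 measured genes of core pluripotency, 1 was higher (CRIPTO) and 5 lower, and 4 and 4 after quantile normalization, 5 and 4 with median centring. POU5F1 and NANOG were not among the measured members, so the list does not cover these 2 factors. The share called was 21.4%, against 25.6% of all genes with levels between 8 and 9.5, where the mean of this list lay. OTX2, a homeobox factor of primed pluripotency and anterior neuroectoderm, measured 10.46 and 10.58 in siTET3 cells, against 11.20 and 11.25 in siTET1 cells, a log2 change of -0.70 ± 0.045 (SE, adjusted p = 2.45e-06). The siTET2 mean (10.61) lay beside the siTET3 arrays and the siNTC mean (11.12) beside the siTET1 arrays. LIN28A, which blocks the processing of let-7 microRNAs, measured 12.10 and 12.18 in siTET3 cells, against 12.38 and 12.43 in siTET1 cells, a change of -0.26 ± 0.042 (SE, adjusted p = 0.00131), and its dimmer cluster changed by -0.26 as well. SOX2 was lower (-0.12), a call lost with median centring and without siTET3 replicate 1. GDF3 was lower (-0.18), lost without the trend.

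Of 18 measured neuroectoderm genes 3 were lower, OTX2 among them, and none was higher, a share of 16.7% against 13.8% of all genes. In the class of levels from 5.21 to 6.5, where the mean of this list lay, 4.7% of genes were called. OTX2 itself was far brighter than that class. MAP2, a microtubule-associated protein of dendrites, measured 7.65 and 7.82 in siTET3 cells, against 8.39 and 8.49 in siTET1 cells, a log2 change of -0.71 ± 0.068 (SE, adjusted p = 4.2e-05), below the siNTC mean of 8.91 in both groups. ZIC2, a zinc finger factor of the neural plate, changed by -0.29, a call lost after quantile normalization, cyclic loess and median centring. None of 20 mesendoderm genes passed the test, but only 9 of them were above background, and 1.8% of all genes below it were called. GATA6 (0.28) was above background, EOMES (0.09) and GATA4 (0.07) lay close to it and TBXT (0.02) below it. Without siTET1 replicate 1, 1 mesendoderm gene was called higher. Of 17 trophectoderm genes 1 (5.9%) was called, against 14.4% of all genes with levels between 6.5 and 8, where this list lay. The called gene was TFAP2A, at 11.65 and 11.70 in siTET3 cells, against 11.999 and 12.02 in siTET1 cells, a change of -0.33 ± 0.033 (SE, adjusted p = 4.64e-05). HAND1, which the study also assayed by PCR, measured 6.15 and 6.27 in siTET3 cells, against 6.12 and 6.31 in siTET1 cells, and did not differ beyond its spread, with a change of -0.003 ± 0.098 (SE, adjusted p = 0.989) and a 95% confidence interval of -0.22 to 0.21. Both groups lay below the siNTC mean of 7.055 for HAND1, as did the siTET2 mean of 6.09.

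Genes of neuronal growth and secretion had 10 members lower and 3 higher of 35 measured, 8 lower and 1 higher without siTET3 replicate 1, and 7 lower and 1 higher without siTET1 replicate 2 or with all clusters. The share called was 37.1%, against 14.4% of all genes with levels between 6.5 and 8, where the mean of this list lay. RTN1, a reticulon of neuroendocrine cells, measured 5.55 and 5.48 in siTET3 cells, against 6.35 and 6.18 in siTET1 cells, a log2 change of -0.75 ± 0.11 (SE, adjusted p = 0.000718). STMN2, a microtubule-destabilizing protein of growing axons, measured 11.26 and 11.24 in siTET3 cells, against 11.65 and 11.63 in siTET1 cells, a change of -0.39 ± 0.035 (SE, adjusted p = 2.25e-05). Both groups lay above the siNTC mean of 10.44 for STMN2. The adhesion molecule NCAM1 was lower (-0.47), lost without siTET3 replicate 1 and without siTET1 replicate 2. NEFH, the heavy neurofilament subunit, went the other way at 8.27 and 8.27 in siTET3 cells, against 7.73 and 7.67 in siTET1 cells, a change of 0.57 ± 0.063 (SE, adjusted p = 0.000105).

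Cell cycle and replication genes had 12 members lower and 2 higher of 45 measured, 7 and 4 after quantile normalization, 8 and 2 without siTET3 replicate 1, 7 and none without siTET1 replicate 1, 7 and 1 without siTET1 replicate 2, and 6 and 1 with all clusters. The share called of 31.1% was near that of all genes in the classes on either side of the list's level of about 9.5 (25.6% and 30.3%), and the lower calls were the majority in those classes too. Beside CCNB2, CDKN1B, the inhibitor of cyclin-dependent kinases known as p27, measured 7.85 and 7.92 in siTET3 cells, against 8.34 and 8.38 in siTET1 cells, a log2 change of -0.47 ± 0.062 (SE, adjusted p = 0.000367). The siTET3 arrays were the lowest of the series, with a siTET2 mean of 8.46 and siNTC arrays at 8.94 and 9.06. CDC25C, the phosphatase that activates CDK1, measured 8.42 and 8.501 in siTET3 cells, against 8.89 and 8.81 in siTET1 cells, a change of -0.39 ± 0.056 (SE, adjusted p = 0.000651). The D-type cyclin CCND3 (-0.37) and the replicative helicase subunit MCM5 (-0.36) were lower as well. The list thus held both an inhibitor and drivers of division among its lower members.

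Cholesterol synthesis and uptake had 6 members lower and 2 higher of 23 measured, with a list median of -0.14. The share called was 34.8%, against 25.6% and 30.3% of all genes in the classes next to the list's level of about 9.5, where lower calls were the majority as well. SQLE, the first oxygen-dependent enzyme of the pathway, measured 10.82 and 10.70 in siTET3 cells, against 11.12 and 11.11 in siTET1 cells, a log2 change of -0.36 ± 0.045 (SE, adjusted p = 0.00026). EBP, a sterol isomerase, measured 9.51 and 9.51 in siTET3 cells, against 9.94 and 9.88 in siTET1 cells, a change of -0.40 ± 0.053 (SE, adjusted p = 0.000394). HMGCS1, which makes the precursor of mevalonate, was lower (-0.26), as was DHCR7, the last enzyme of the pathway (-0.22), both with siNTC cells above either depletion (12.13 and 11.22). The counts were 5 lower and none higher without siTET3 replicate 1, without either siTET1 replicate and with all clusters.

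**Figure D5:**
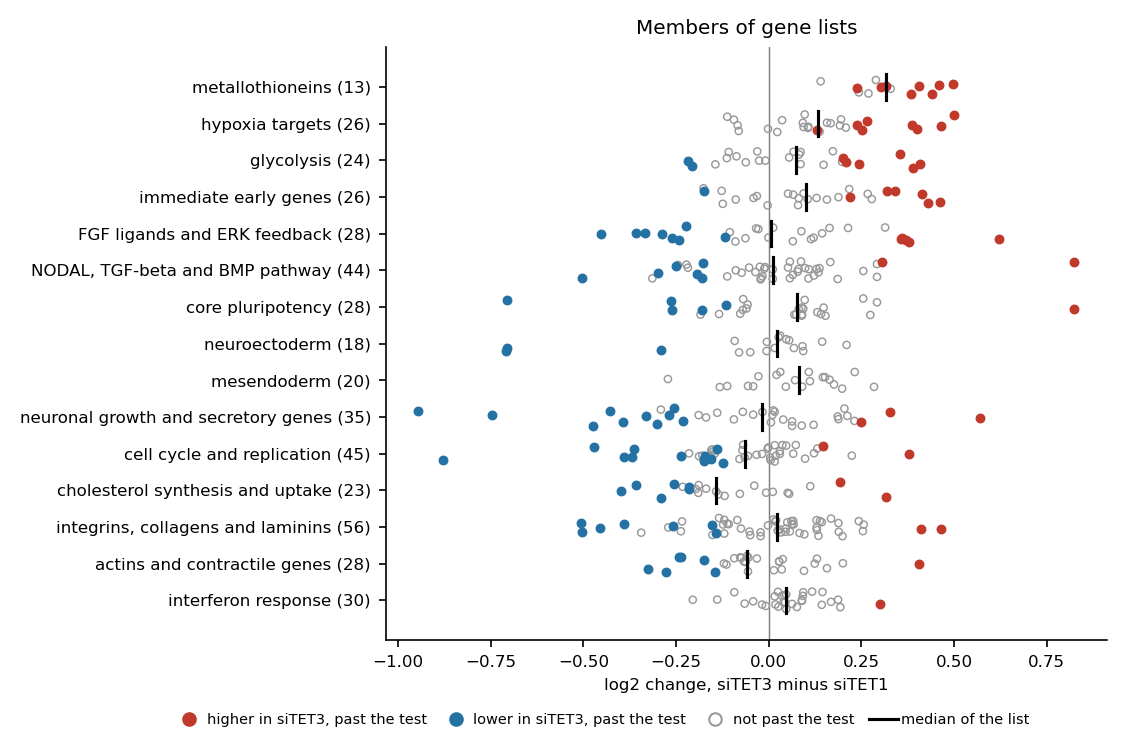
Log2 change (siTET3 minus siTET1, x axis) of the measured members of 15 gene lists (y axis, number of members in parentheses). Filled points passed the test, open points did not, and the black bar is the median of the list. Calls in the metallothionein and hypoxia lists lie to the right of 0 only, and none of the 20 mesendoderm members was called.

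Among cell surface and matrix genes, integrins, collagens and laminins had 7 members lower and 2 higher of 56 measured, and 5 and 5 after quantile normalization. The share called was 16.1%, against 13.8% of all genes. The mean of this list lay just below 6.5, where 4.7% of genes were called in the class below and 14.4% in the class above. Lower calls were the majority over all genes as well (9.94% lower and 3.82% higher). The laminin chain LAMA1 measured 8.12 and 8.15 in siTET3 cells, against 8.66 and 8.62 in siTET1 cells, a log2 change of -0.51 ± 0.061 (SE, adjusted p = 0.000184), and THBS1, a matrix glycoprotein, measured 7.04 and 7.28 in siTET3 cells, against 7.64 and 7.70 in siTET1 cells, a change of -0.51 ± 0.088 (SE, adjusted p = 0.0023). The integrin subunits ITGAV (0.47) and ITGB8 (0.41), which pair into a receptor that activates latent TGF-beta, were both higher. LTBP1, which holds latent TGF-beta in the matrix, was lower (-0.50). Cadherins and junction genes had 5 lower and 1 higher of 47, and 4 and 4 after quantile normalization, with CDH10 (-0.70) and PCDH18 (-0.51) lower. Their share called was 12.8%, against 14.4% of all genes with levels between 6.5 and 8, where the mean of this list lay.

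Of 28 actins and contractile genes 6 were lower and 1 higher. Among them were TPM1, lower (-0.33), whose siNTC mean of 9.60 lay above both groups, and the myosin light chain MYL6, higher at 0.41. The mean of this list lay near 8, at the border of 2 classes of level. Its share called was above the 14.4% of all genes in the class below and just under the 25.6% in the class above. Lower calls were the majority in both classes as well. In the WNT pathway 7 members were lower and 2 higher of 52, and 3 and 4 with median centring. The share called was 17.3%, against 14.4% of all genes with levels between 6.5 and 8, where the mean of this list lay. The secreted inhibitor SFRP1 was lower (-0.69), as was FRZB (-0.56), another secreted inhibitor, lost without siTET1 replicate 2. JAG1, a ligand of NOTCH receptors, was lower (-0.42), and HEY2, a target of NOTCH signalling, higher by 0.31. Imprinted genes had 4 lower and 1 higher of 22, with SGCE (-0.58), GRB10 (-0.39) and PEG10 (-0.39) lower. Their share called was 22.7%, against the same 14.4%.

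Genes that write, read or remove DNA methylation had 3 members higher and 4 lower of 21 measured, a share of 33.3% against 13.8% of all genes and 25.6% of genes with levels between 8 and 9.5. The counts were 3 and 1 with median centring, none and 2 without siTET1 replicate 1 or with all clusters, and 1 and 1 without siTET1 replicate 2. DNMT1, the maintenance methyltransferase, measured 10.39 and 10.48 in siTET3 cells, against 10.61 and 10.59 in siTET1 cells, a log2 change of -0.17 ± 0.042 (SE, adjusted p = 0.0186), lost under all 3 other scalings and without siTET3 replicate 1. The de novo methyltransferases DNMT3A (-0.02) and DNMT3B (-0.06) did not pass the test. IDH2, a mitochondrial enzyme that makes 2-oxoglutarate, measured 7.97 and 7.98 in siTET3 cells, against 8.42 and 8.37 in siTET1 cells, a change of -0.42 ± 0.061 (SE, adjusted p = 0.000672), and its arrays did not overlap. MBD4, a glycosylase that acts on mismatched thymine at CpG, was higher by 0.26, lost without siTET3 replicate 1. Of 19 base excision repair genes 2 (10.5%) were lower, and none under quantile normalization or without siTET3 replicate 1. At this list's level, between 8 and 9.5, 25.6% of all genes were called.

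Polycomb and trithorax genes had 2 members higher and 6 lower of 38, and 4 and 3 after quantile normalization. The share called was 21.1%, against 25.6% of all genes with levels between 8 and 9.5, where this list lay. SUZ12, a core subunit of the polycomb complex that methylates histone H3, measured 11.08 and 11.19 in siTET3 cells, against 10.69 and 10.74 in siTET1 cells, a log2 change of 0.42 ± 0.043 (SE, adjusted p = 5.87e-05), with the siTET2 and siNTC means between the groups at 10.89 in siTET2 and 10.86 in siNTC cells. Among other dioxygenases that use 2-oxoglutarate, 1 was higher (KDM3A) and 5 lower of 37, and 3 and 2 after quantile normalization. Their share called was 16.2%, against 25.6% of all genes in the same class of level. The histone demethylase KDM4C measured 9.28 and 9.35 in siTET3 cells, against 9.63 and 9.63 in siTET1 cells, a change of -0.31 ± 0.051 (SE, adjusted p = 0.0014).

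MicroRNA genes were mostly dim, with 50 of 173 above background, and 6 were higher and 5 lower. That share of 6.4% stood against 13.8% of all genes and 1.8% of those below background, where the mean of this list lay. The counts depended on single arrays, with 2 higher and 3 lower without siTET3 replicate 1, 21 and 7 without siTET3 replicate 2, 2 and 3 without siTET1 replicate 1 and none and 2 without siTET1 replicate 2. No microRNA gene was called higher in the fit of the 4 arrays alone or with all clusters, and 3 were called lower in each. MIR302A and MIR302B, members of a cluster expressed in pluripotent cells, were the brightest of those called. Their mature 3p products share a seed, shown here in capitals from RefSeq (GRCh38.p14) to show what the cluster members have in common.
hsa-miR-302a-3p (chr4:112648186-112648208, minus strand): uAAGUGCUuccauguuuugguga
hsa-miR-302b-3p (chr4:112648489-112648511, minus strand): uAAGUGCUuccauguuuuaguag

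MIR302A measured 9.76 and 10.00 in siTET3 cells, against 10.40 and 10.77 in siTET1 cells, a log2 change of -0.70 ± 0.12 (SE, adjusted p = 0.00186). MIR302B measured 10.75 and 10.77 in siTET3 cells, against 11.22 and 11.32 in siTET1 cells, a change of -0.51 ± 0.060 (SE, adjusted p = 0.000167). All 4 siTET3 values lay below the siTET1 values of the same gene, with siTET2 and siNTC means of 10.05 and 10.26 for MIR302A. MIRLET7F1, a let-7 precursor, was lower (-0.44), lost without siTET1 replicate 2. The probes do not tell a mature microRNA from its precursor. RNA interference genes had 2 higher and 3 lower of 16, and 2 and 1 after quantile normalization, with the precursor export factor XPO5 lower (-0.27). Their share called of 31.2% was near the 30.3% of all genes with levels between 9.5 and 11, where this list lay.

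Small nucleolar and Cajal body RNAs, guides for modification of other RNAs, had 22 members higher and 9 lower of 192 measured. Their share called was 16.1%, against 13.8% of all genes and 25.6% of those with levels between 8 and 9.5, where the mean of this list lay. The counts were 29 and 9 after quantile normalization, 16 and 7 without siTET3 replicate 1, 27 and 19 without siTET3 replicate 2, 14 and 4 without siTET1 replicate 2, and 13 and 3 with all clusters. SNORA21 measured 11.82 and 11.79 in siTET3 cells, against 11.25 and 11.19 in siTET1 cells, a log2 change of 0.58 ± 0.042 (SE, adjusted p = 5.38e-06), and SNORD41 was higher by 0.34. SNORA60 measured 6.38 and 6.70 in siTET3 cells, against 7.33 and 7.46 in siTET1 cells, a change of -0.85 ± 0.17 (SE, adjusted p = 0.00492), lost without siTET1 replicate 2. VTRNA1-1, a vault RNA, measured 11.51 and 11.36 in siTET3 cells, against 10.89 and 11.03 in siTET1 cells, a change of 0.47 ± 0.085 (SE, adjusted p = 0.00288), between siTET2 (12.01) and siNTC (9.18), a call lost in the fit of all clusters.

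Histone genes of the replication-dependent class had 8 higher and 12 lower of 57. The share called was 35.1%, against 25.6% of all genes with levels between 8 and 9.5, where the mean of this list lay. H3C12 measured 9.73 and 9.73 in siTET3 cells, against 10.46 and 10.53 in siTET1 cells, a log2 change of -0.76 ± 0.045 (SE, adjusted p = 1.43e-06), and H4C5 was lower (-0.69). H2AC15 went the other way, at 10.31 and 10.27 in siTET3 cells, against 9.501 and 9.58 in siTET1 cells, between siTET2 (9.40) and siNTC (11.18). H4C14 and H4C15 carried identical values (a change of 0.43), so that 2 of the 8 higher members are 1 measurement.

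In the lists of housekeeping machinery, the direction of the majority depended on the scaling. Oxidative phosphorylation subunits had 6 higher and 14 lower of 69, but 8 and 6 after quantile normalization and 12 and 6 with median centring. Their share called of 29.0% was near the 30.3% of all genes with levels between 9.5 and 11, where this list lay. Among them COX6B1 (0.45) and NDUFA2 (0.31) were higher and NDUFS7 (-0.39) and NDUFS3 (-0.34) lower. Cytosolic ribosomal proteins had 5 higher and 11 lower of 65, but 11 and 2 with median centring, with RPS6 higher (0.27) and RPS14 lower (-0.26), both lost without the trend, and such probes can also catch near-identical copies. Their share called was 24.6%, against 31.2% of all genes with levels above 11, where the mean of this list lay. Zinc finger genes, listed by their ZNF symbols and not by protein domain, had 10 higher and 28 lower of 439, but 26 and 14 after quantile normalization. The share called was 8.7%, against 14.4% of all genes with levels between 6.5 and 8, where the mean of this list lay. ZNF521 (-0.59) was lower under both scalings. Of the transcripts often used as references, GAPDH changed by -0.01 ± 0.039 (SE, adjusted p = 0.916) and TBP by 0.41 ± 0.040 (SE, adjusted p = 4.3e-05).

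Markers of other cell types were mostly at background. POU5F1 was not among the measured markers of NCCIT cells. All 9 measured markers that define NCCIT cells were above background, against 3 of 9 fibroblast markers and 1 of 9 endothelial and blood markers, and no marker of either other cell type was called, although 2 fibroblast markers were called higher without siTET3 replicate 2 and 1 endothelial or blood marker without siTET3 replicate 2 or siTET1 replicate 1. Of 30 interferon response genes 1 was higher, IFITM3, at 0.30, lost without siTET1 replicate 1. That share of 3.3% stood against 4.7% of all genes with levels between 5.21 and 6.5, where the mean of this list lay. Of 24 targets of p53, 2 were lower and none higher, with the death receptor TNFRSF10B lower (-0.37). That share of 8.3% lay below the 14.4% of all genes with levels between 6.5 and 8, where this list lay. In the list of amino acid starvation and unfolded protein stress 5 were higher and 5 lower of 33, and 7 and 1 with median centring. The share called was 30.3%, against 25.6% of all genes with levels between 8 and 9.5, where this list lay. XBP1, a factor of the unfolded protein response, was higher at 10.02 and 10.02 in siTET3 cells, against 9.69 and 9.69 in siTET1 cells, a log2 change of 0.33 ± 0.047 (SE, adjusted p = 0.000582). Over the chromosomes, the median change of genes above background ran between -0.068 on chromosome X and -0.016 on chromosome 21.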

How the data were processed

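RNA of NCCIT cells was measured on Affymetrix Human Gene 1.0 ST arrays, with 8 arrays in 4 groups of 2. The authors deposited log2 intensity values, normalized between arrays. Per the labels Partek was used. Not given in the sources used here are its version and how probes were corrected for background and summarized. The deposited values spanned 3.13 to 14.8 over 33297 clusters of probes. The array annotation gave exactly 1 gene symbol to 19460 clusters (58.4%), none to 12083 and several to 1754. The comparison kept the first kind, and 769 genes with several clusters were represented by the cluster with the highest mean over the 8 arrays, which left 18417 genes. Background was set at 5.208, the 95th percentile over 341 olfactory receptor genes of their mean level, and 12750 genes (69.2%) lay above it.

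The siTET3 minus siTET1 contrast was taken from 1 linear model with 4 groups over all 8 arrays (limma 3.58.1 in R 4.3.3, lmFit, then eBayes with trend, with 4 residual degrees of freedom and 8.55 from the prior). Tests were two-sided, with Benjamini-Hochberg adjustment over all genes, and genes were called at an adjusted p under 0.05. The step was tested on simulated data. With 2 arrays a group, the number of arrays limits the precision. The members of the comparison, the lists of genes and the naming rule were chosen with earlier results of these data known. Named were the TETs, the methyltransferases, genes the study assayed by PCR, the 15 largest called changes each way above background and up to 6 called members of each list. The last 2 kinds were also required to have siTET3 and siTET1 arrays that did not overlap. The metallothionein list was added after its values were seen, as were CRIPTO3 and further members named by their role. Alternatives were quantile and cyclic loess normalization, median centring, no intensity trend, only genes above background, cluster means, fits of 4 or 6 arrays, a fit of all clusters, a replicate block and leaving out each array. Promoter and microRNA sequences came from RefSeq (GRCh38.p14). Python 3.11.15 and matplotlib 3.10.9 drew the figures.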

Additional observations from a re-analysis of the deposited data

How the results depend on the processing

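The main fit did not pair the samples by replicate number. Same-numbered deviations correlated at 0.238 between siTET3 and siTET1, above the -0.043 to 0.028 of the other pairs. With the replicate block 2592 genes were called, 740 higher and 1852 lower. A fit of all 33297 clusters, chosen after seeing the data, called 1041 of the 18417 genes (263 higher and 778 lower, 87 with at least a 1.5-fold change), with TET3 at -0.74 (adjusted p = 0.0707). Without the intensity trend 1287 genes were called (354 higher and 933 lower). Requiring at least a 1.5-fold change left 93 of the 2534 genes. The lower calls numbered 1179 after quantile normalization, 1205 after cyclic loess and 1041 with median centring, and the higher calls 1280 with median centring; cyclic loess and centring were chosen after seeing the data. Leaving out 1 array gave 1008 (without siTET1 replicate 2) to 3242 calls (without siTET3 replicate 2), 294 to 1022 of them higher and 714 to 2220 lower, and 93 to 240 with at least a 1.5-fold change. Without siTET1 replicate 1 the count was 1294 and without siTET3 replicate 1 it was 1552. The TET3 change ranged between -0.96 and -0.52 over the arrays left out, and between -0.74 and -0.67 in the other settings. Of 207 named genes past the test, 103 stayed past it in every alternative and none changed sign. The causes of these differences were not tested.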

Other observations

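In a fit over all 33297 clusters, 313 of the 12083 clusters with no gene symbol passed the test (140 higher and 173 lower in siTET3 cells), as did 86 of the 1754 clusters with several symbols. The same fit called 1102 of the 19460 clusters with 1 symbol, where the fit of 18417 genes called 2534.

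Among windows of 25 neighbouring genes above background, the highest median change was 0.21 on chromosome 16, between IRX5 and HERPUD1, a window with 18 positive and 7 negative changes that holds the metallothionein genes. The lowest was -0.21 on chromosome 19, between KHSRP and EVI5L, with 6 positive and 19 negative changes. Overlapping windows of the same places gave like values, and no test was made.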
